A study of Mus musculus with 2 samples.

Results

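The sirtuins and NAD metabolism genes described here were 10 genes of the 19059 in the files: the sirtuins Sirt1, Sirt2, Sirt3, Sirt4, Sirt5, Sirt6 and Sirt7, the NAD synthesis enzymes Nampt and Nmnat2, and Parp1. They were chosen by gene symbol, and each symbol had 1 row in the files, with the identifier that the GENCODE annotation gives for it. All 10 had at least 50 counts over both libraries in each of the 9 main cell classes, the minimum set for a ratio.

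NAD is a coenzyme of energy metabolism that is also used up by signalling enzymes. NAMPT starts the salvage route, which remakes NAD from nicotinamide, and the NMNAT enzymes complete it, with NMNAT2 best known for keeping axons alive. Sirtuins use NAD to take acetyl and other acyl groups off proteins, and PARP1 uses it to build poly(ADP-ribose) at DNA breaks. A fall of tissue NAD is a known feature of ageing, and the sirtuins are studied widely in that context.

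Hippocampus was taken from aged wild-type C57BL/6 mice. The study used both sexes, but the sex of the mice pooled for each library was not given in the sources used here. The control mice ate standard chow and the tomatidine mice ate a diet with 0.05% tomatidine, a steroidal alkaloid from tomato plants, for 3 months from 21 months of age. Hippocampi of 4 mice were pooled in each group, so there was 1 library per group, no error between mice could be measured, and no test between the groups was possible. No library of young mice was analysed here.

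In this assay, fixed cells are hybridised with probes to each gene, and unique molecular identifiers (UMIs) count the bound probes in each cell. After filters 15115 control and 14502 tomatidine cells were left, with a median of 7077 and 7408 UMIs, and 292 cell barcodes occurred in both libraries. Cells were clustered without the genes described here, and clusters were named from marker lists, written as X-like because the names were rebuilt. The libraries differed in their mix: choroid plexus-like cells numbered 349 in the control and 33 in the tomatidine library, and thalamic or other subcortical neuron-like cells, called thalamic-like from here on, numbered 638 and 407. The summed level of the 9 choroid plexus markers was higher in the control library in all 9 main classes, for example 249 against 71.4 CPM (counts scaled to 1000000 UMIs of a class) in excitatory neuron-like cells, 2295 against 95.4 in endothelial-like cells and 2386 against 669 in meningeal fibroblast-like cells. Its part in the ratios below was not tested. Astrocyte-like cells also held neuronal RNA, with 3455 and 3527 CPM of 6 pan-neuronal markers, against 6328 and 6327 CPM in excitatory neuron-like cells. The part of this neuronal RNA in the astrocyte-like values was not tested either. Endothelial-like cells were mixed too, with 10508 and 11733 CPM of endothelial markers. Beside these they held 6400 and 7943 CPM of markers of mural cells (pericytes and vascular smooth muscle). Astrocyte markers were at 8060 and 5892 CPM there. The part of this other RNA in the endothelial-like values was not tested. Clusters with 2025 control and 2628 tomatidine cells met no naming rule. They enter the sums over all cells and are otherwise given by cluster number.

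Levels are given as CPM, and ratios as the log2 of the tomatidine over the control CPM. Intervals are 95% and cover counting error only, not the spread between mice. A ratio is called past the fold when it is at least 25% higher or 20% lower. Because the number of probes per gene was not given in the sources used here, levels were not compared between genes.

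**Figure D1:**
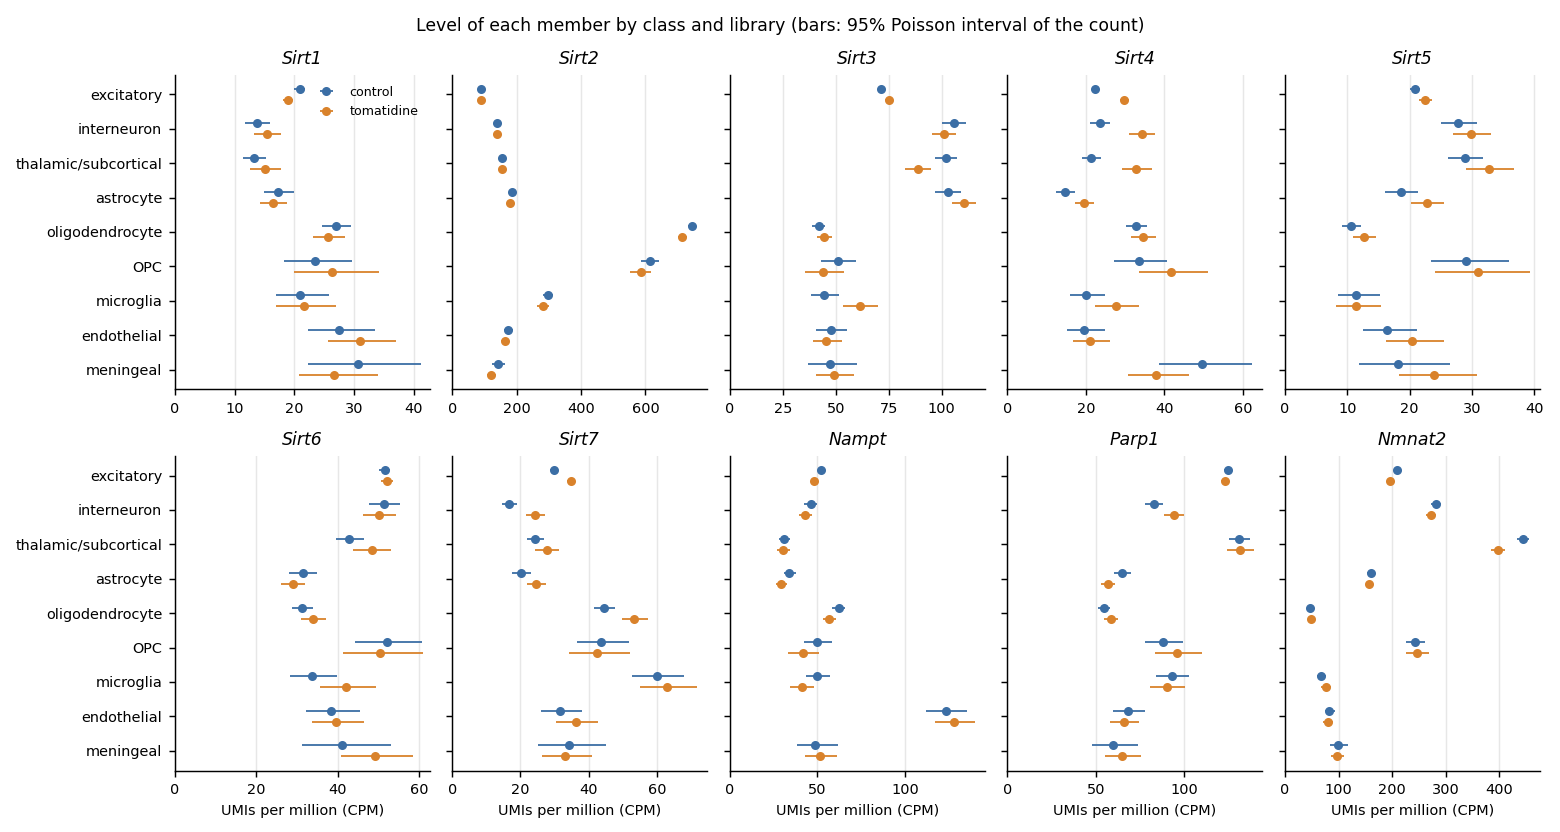
Level of each of the 10 genes in the 9 main classes, in CPM (x axis, from 0, with its own scale in each panel), with 1 point per library and bars for the 95% Poisson interval of the count. Sirt2 stands out in oligodendrocyte-like and OPC-like cells, Nampt in endothelial-like cells and Nmnat2 in thalamic-like cells, in both libraries.

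Among the 10 genes, Sirt2, Nampt and Nmnat2 had the clearest cell class pattern, so the upstream sequence of these 3 genes is shown to place them in the genome. The sequences are the plus strand of GRCm38.p6 from RefSeq, read 5′ to 3′, and show the longest run, of the 250 bases before the RefSeq start, that lies outside exons in the GENCODE annotation. Capitals mark GC boxes (GGGCGG on either strand).
Sirt2, chr7:28766641-28766734: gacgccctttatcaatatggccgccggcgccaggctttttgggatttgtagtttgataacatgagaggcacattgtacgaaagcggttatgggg
Nampt, chr12:32820085-32820334: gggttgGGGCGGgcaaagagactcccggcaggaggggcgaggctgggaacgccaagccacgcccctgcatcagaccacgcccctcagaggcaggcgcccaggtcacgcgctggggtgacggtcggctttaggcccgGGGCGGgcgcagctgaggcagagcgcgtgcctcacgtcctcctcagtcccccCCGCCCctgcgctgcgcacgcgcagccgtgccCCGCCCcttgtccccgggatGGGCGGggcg
Nmnat2, chr1:152954851-152954992: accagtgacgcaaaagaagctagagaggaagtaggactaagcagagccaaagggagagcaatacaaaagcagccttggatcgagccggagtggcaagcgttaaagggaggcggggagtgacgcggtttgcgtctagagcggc

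The Nampt sequence held 5 GC boxes and 27 CpG, and a GC box occurred in 32.9% of 27025 upstream sequences of the same length. No GC box was found in the shown stretches of Sirt2 and Nmnat2, where 22.7% and 15.4% of sequences have one in the same window. An E-box was searched as CACGTG. The cyclic AMP response element was searched as TGACGTCA, the CCAAT box and the TATAAA box by these letters, and an ATF4-type element as TGATGNAA. All were searched on both strands, and none had a match in these 3 stretches. The Sirt2 stretch is short because exons of Nfkbib, the divergent neighbour, cover 139 of the 250 bases, and an exon of Sirt2 itself, which GENCODE starts earlier than RefSeq, covers 17. The bases left out in the Nfkbib exons held 1 GC box and 2 CCAAT boxes. In Nmnat2 an exon of the gene itself covers 108 bases. The Nampt stretch lies directly before the protein-coding transcript but inside the gene as GENCODE draws it, in an intron of a transcript that starts further upstream. These matches describe the letters only, and no readout of promoter use was analysed here.

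Nampt encodes the enzyme that limits the rate of NAD salvage (chromosome 12, 32819545 to 32853349, plus strand, GRCm38). Its level was highest in endothelial-like cells, at 123 CPM in the control and 128 CPM in the tomatidine library. The next class, oligodendrocyte-like cells, had 62.1 and 56.7 CPM, and the counting intervals of these classes did not overlap. Astrocyte-like cells (34.0 and 29.4 CPM) and thalamic-like cells (31.0 and 30.5 CPM) were lowest among the 9 classes and did not differ beyond counting error. Over both libraries, endothelial-like cells had 2.70 times the level of all other kept cells. They gave 929 UMIs, or 4.76% of all Nampt UMIs, while excitatory neuron-like cells gave 51.3%.

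Nampt was lower in the tomatidine library in 7 of 9 classes, and 14.2% of 9604 genes were lower in at least 7. Among excitatory neuron-like cells the control had 51.7 and the tomatidine library 48.2 CPM, a log2 ratio of -0.10 (-0.16 to -0.05), which was not past the fold. This was the only class whose interval lay below 0. Microglia-like cells had 49.9 and 40.9 CPM, with a log2 ratio of -0.29 (-0.60 to 0.03). In endothelial-like cells, where the level was highest, the log2 ratio was 0.06 (-0.13 to 0.25).

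Nmnat2 encodes the cytosolic enzyme that makes NAD from NMN in axons (chromosome 1, 152954993 to 153119261, plus strand). Thalamic-like cells had the highest level, with 444 CPM in the control and 397 CPM in the tomatidine library. Interneuron-like cells followed with 281 and 273 CPM, and excitatory neuron-like cells had 209.8 and 196.9 CPM. Oligodendrocyte-like cells were lowest at 45.9 and 49.2 CPM, so the highest class was 9.01 times the lowest over both libraries. Over both libraries, each neighbour among the 5 highest classes differed beyond counting error, while in the tomatidine library alone the intervals of interneuron-like and OPC-like cells overlapped.

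OPC-like cells (oligodendrocyte precursors) had Nmnat2 at a neuronal level, with 243 CPM in the control and 247 CPM in the tomatidine library. To set this against neuronal RNA in the same cells, Nmnat2 was divided by the UMIs of 6 pan-neuronal markers. OPC-like cells had 166 Nmnat2 UMIs per 1000 marker UMIs, against 32.2 in excitatory neuron-like, 41.9 in interneuron-like and 62.7 in thalamic-like cells. Astrocyte-like (45.4), oligodendrocyte-like (44.1), microglia-like (42.7) and endothelial-like cells (39.5) were all near the 38.2 of all kept cells. The OPC-like ratio thus lay above that of every neuronal class, in the control (163) as in the tomatidine library (170.3). Among excitatory neuron-like cells, CA1 cells had the lowest Nmnat2, with 124 and 112 CPM, against 220.5 and 198 CPM in dentate granule cells and 241 and 222 CPM in CA3 cells.

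The log2 ratio of Nmnat2 was -0.09 (-0.12 to -0.06) in excitatory neuron-like and -0.16 (-0.22 to -0.10) in thalamic-like cells. Both were under the fold. The dentate granule (-0.16), CA1 (-0.15) and CA3 (-0.12) cells each had an interval below 0 as well. Interneuron-like cells had -0.05 (-0.11 to 0.02), and OPC-like cells 0.02 (-0.14 to 0.19). The unnamed clusters together went the other way, with 205 and 236 CPM (0.20, 0.16 to 0.25). Their pan-neuronal markers were at 4854 and 5889 CPM, and the part of this difference in the Nmnat2 ratio was not tested.

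**Figure D2:**
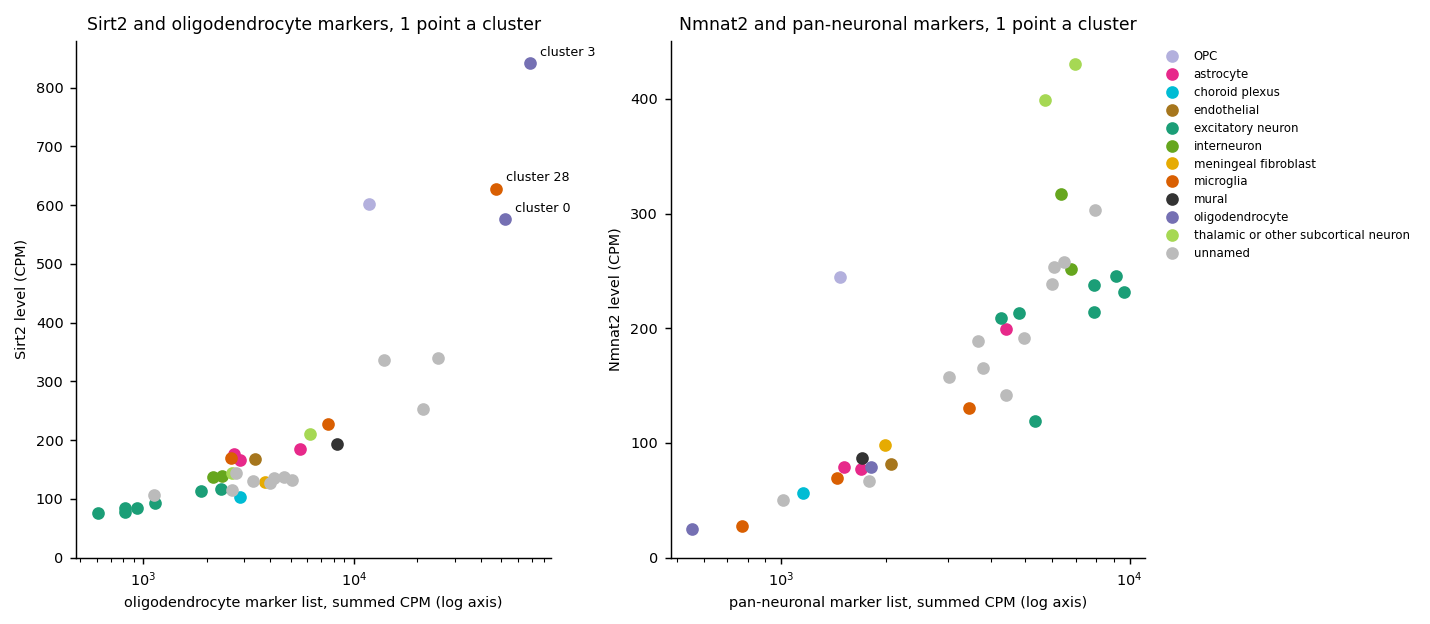
Level of Sirt2 against the summed oligodendrocyte markers (left) and of Nmnat2 against the summed pan-neuronal markers (right), with 1 point per cluster over both libraries, all in CPM, and a log x axis. The OPC-like cluster lies above the other clusters at its marker level in both panels, and cluster 28, named microglia-like, lies with the oligodendrocyte-like clusters 0 and 3.

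Parp1 encodes the main poly(ADP-ribose) polymerase, a large consumer of NAD after DNA damage (chromosome 1, 180568924 to 180601254, plus strand). Thalamic-like cells (131 CPM in the control, 132 CPM in the tomatidine library) and excitatory neuron-like cells (125 and 123 CPM) were highest. Within excitatory neuron-like cells, CA1 cells had 173 and 179 CPM, CA3 cells 156 and 159 CPM, and dentate granule cells 135 and 138 CPM. CA1 cells were thus lowest in Nmnat2 and highest in Parp1 among these 3 hippocampal neuron groups. The excitatory neuron-like clusters with no hippocampal name had 78.6 and 84.5 CPM, and oligodendrocyte-like cells 54.5 and 58.7 CPM.

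No class had Parp1 past the fold. Its log2 ratio was -0.02 (-0.06 to 0.01) in excitatory neuron-like and 0.01 (-0.10 to 0.11) in thalamic-like cells. Interneuron-like cells had 82.8 and 94.0 CPM, a log2 ratio of 0.18 (0.06 to 0.30), which was -0.0088 when cells were chosen by a per-cell marker gate in place of clusters. Astrocyte-like cells had 65.0 and 56.8 CPM, a log2 ratio of -0.19 (-0.35 to -0.04).

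Sirt2 encodes the mainly cytosolic sirtuin, which deacetylates tubulin and is abundant in myelin (chromosome 7, 28766735 to 28788661, plus strand). Oligodendrocyte-like cells had 746 CPM in the control and 714 CPM in the tomatidine library, and OPC-like cells had 615 and 585 CPM. Microglia-like cells came next with 297 and 281 CPM, and excitatory neuron-like cells were lowest with 88.3 and 89.9 CPM. The highest class was 8.22 times the lowest over both libraries, and oligodendrocyte-like cells gave 33.4% of all Sirt2 UMIs.

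The 2 oligodendrocyte-like clusters differed in Sirt2. Cluster 3, led by Klk6, Enpp6 and Gjb1, had 857 CPM in the control and 823 CPM in the tomatidine library. Cluster 0, led by Plin4, Sec14l5 and Rrs1, had 599 and 542 CPM, and also less of the oligodendrocyte marker list (51890 against 68130 CPM over both libraries). Of these 2 clusters, the one with more of the marker list thus had more Sirt2, and 2 clusters cannot show a trend. In the OPC-like cluster the oligodendrocyte marker list was at 11764 CPM, and Sirt2 was still at 602 CPM over both libraries. Per 1000 oligodendrocyte marker UMIs, Sirt2 was at 51.2 in OPC-like cells and 11.9 in oligodendrocyte-like cells. In the other main classes it ran from 20.6 in microglia-like to 80.1 in excitatory neuron-like cells, so the OPC-like value lay within that range. The OPC-like cluster also held 2966 CPM of markers of committed oligodendrocyte precursors, against 434 in cluster 0 and 498 in cluster 3. By library, these precursor markers were at 2813 CPM in the control and 3179 CPM in the tomatidine OPC-like cells. The oligodendrocyte marker list was higher in the control OPC-like cells (14283 against 8247 CPM). Sirt2 in OPC-like cells differed by a log2 ratio of -0.07 (-0.18 to 0.03).

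The Sirt2 level of microglia-like cells was uneven across clusters. Cluster 28, with 208 cells, had 628 CPM of Sirt2 and 46996 CPM of oligodendrocyte markers, beside 13187 CPM of microglia markers. Cluster 8, led by Tmem119, Slc2a5 and Selplg, had 170 CPM of Sirt2 and 2592 CPM of oligodendrocyte markers, and cluster 18, a shallow one, had 228 and 7492 CPM. Astrocyte-like cells, for comparison, had 184 and 179 CPM.

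In the 9 classes the log2 ratio of Sirt2 ran from -0.24 to 0.02, and none was past the fold. In oligodendrocyte-like cells it was -0.06 (-0.10 to -0.02). Cluster 0 had -0.14 (-0.21 to -0.08) and cluster 3 had -0.06 (-0.10 to -0.01).

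Sirt1 encodes the best studied nuclear sirtuin, a deacetylase of p53, FOXO proteins and PGC-1α (chromosome 10, 63319005 to 63381704, minus strand). Its levels were even across classes, with the highest 2.10 times the lowest over both libraries. Endothelial-like cells had 27.5 CPM in the control and 31.0 CPM in the tomatidine library, and meningeal fibroblast-like cells had 30.7 and 26.7 CPM. Interneuron-like cells (13.7 and 15.4 CPM) and thalamic-like cells (13.3 and 15.05 CPM) were lowest. Among the 6 highest classes each overlapped the next within counting error, but classes further apart could differ. Over both libraries, the intervals of endothelial-like (25.6 to 33.5 CPM) and microglia-like cells (18.2 to 24.8 CPM) did not overlap. In excitatory neuron-like cells Sirt1 was at 20.9 and 18.9 CPM, a log2 ratio of -0.14 (-0.23 to -0.05), and CA1 cells had 18.0 and 14.6 CPM, a log2 ratio of -0.30 (-0.56 to -0.04). Neither was past the fold, and the other 8 classes had intervals that held 0. The excitatory neuron-like ratio was 0.047 when all deposited cells were used and -0.011 with the per-cell marker gate, and both intervals then held 0.

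Sirt6 encodes a chromatin sirtuin that acts in DNA repair and at telomeres (chromosome 10, 81621785 to 81627797, minus strand). Of the 10 genes it had the narrowest range over classes, with the highest 1.87 times the lowest. Excitatory neuron-like (51.5 CPM in the control, 52.1 in the tomatidine library), OPC-like (52.0 and 50.4) and interneuron-like cells (51.4 and 50.1) shared the highest level within counting error. Astrocyte-like cells had 31.4 and 29.0 CPM. The log2 ratio was 0.02 (-0.04 to 0.07) in excitatory neuron-like cells, and no named class had an interval without 0. The unnamed clusters together had 0.20 (0.10 to 0.30).

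Sirt7 encodes the nucleolar sirtuin, linked to ribosomal DNA transcription (chromosome 11, 120618372 to 120625240, minus strand). Microglia-like cells were highest, with 60.0 and 63.1 CPM, before oligodendrocyte-like cells with 44.6 and 53.4 CPM. Within microglia-like cells, cluster 8, which led in Tmem119 and P2ry12, had 73.8 CPM over both libraries, against 37.1 in cluster 18 and 51.6 in cluster 28. An unnamed cluster of 287 cells, led by the macrophage genes Mrc1 and Cd163 and by MHC class II genes, had 86.0 CPM. Of the 9 main classes, interneuron-like cells were lowest in both libraries, with 16.7 and 24.2 CPM.

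Sirt7 was higher in the tomatidine library in 7 of 9 classes, and 28.2% of 9604 genes were higher in at least 7. Its largest ratio was in interneuron-like cells, a log2 ratio of 0.54 (0.28 to 0.80). Both interneuron-like clusters were higher: cluster 17, led by Sst, went from 13.7 to 21.5 CPM, and cluster 23, led by Vip, from 21.9 to 27.98 CPM. Excitatory neuron-like cells had 29.8 and 34.9 CPM, a log2 ratio of 0.23 (0.16 to 0.30), with CA1 cells at 28.1 and 40.6 CPM (0.53, 0.36 to 0.70) and dentate granule cells at 32.9 and 37.7 CPM (0.20, 0.09 to 0.31). Oligodendrocyte-like (0.26, 0.12 to 0.41) and astrocyte-like cells (0.29, 0.04 to 0.55) also had intervals above 0. With the per-cell marker gate the oligodendrocyte-like ratio was -0.021. The mix of astrocyte-like clusters differed between libraries, since cluster 26, with the highest Sirt7 of the 3, had 103 control and 205 tomatidine cells. In cluster 1, which held most astrocyte-like cells, Sirt7 was at 14.8 and 15.3 CPM, and in cluster 14 at 27.9 and 38.7 CPM.

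Sirt3 encodes the main mitochondrial deacetylase (chromosome 7, 140863666 to 140882309, minus strand). Astrocyte-like (103 CPM in the control, 110.4 in the tomatidine library), interneuron-like (106 and 101) and thalamic-like cells (102 and 88.7) were highest, and each overlapped the next within counting error over both libraries. The part of neuronal RNA in the astrocyte-like level of Sirt3 was not tested. Oligodendrocyte-like cells had 41.9 and 44.4 CPM. Interneuron-like cells were not uniform, with 124 CPM in the Sst cluster and 72.4 CPM in the Vip cluster over both libraries. Microglia-like cells had 44.7 and 61.4 CPM, a log2 ratio of 0.46 (0.17 to 0.75), past the fold. Cluster 8 had a log2 ratio of 0.48 (0.08 to 0.89), and with cluster 28 left out the class had 0.39. Microglia-like cells of the tomatidine library also held more astrocyte markers (3934 against 3000 CPM) and pan-neuronal markers (1836 against 1553 CPM). Their oligodendrocyte markers were lower (12128 against 15672 CPM). The part of these differences in the Sirt3 ratio was not tested. In thalamic-like cells the log2 ratio was -0.20 (-0.33 to -0.07), made up of -0.59 in the shallow cluster 20 and -0.12 (-0.25 to 0.02) in cluster 21.

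Sirt5 encodes the mitochondrial desuccinylase and demalonylase (chromosome 13, 43365496 to 43395203, plus strand). It was highest in thalamic-like (28.9 and 32.7 CPM), OPC-like (29.1 and 31.0 CPM) and interneuron-like cells (27.8 and 29.9 CPM), which overlapped within counting error. Oligodendrocyte-like (10.6 and 12.7 CPM) and microglia-like cells (11.5 and 11.4 CPM) were lowest and did not differ from each other. OPC-like and oligodendrocyte-like cells, the 2 classes with the most Sirt2, were far apart in Sirt5, at 29.9 (25.4 to 35.0) and 11.5 (10.3 to 12.7) CPM over both libraries. The tomatidine library was higher in 8 of 9 classes, as were 13.3% of 9604 genes in at least 8. Excitatory neuron-like (0.11, 0.03 to 0.20) and astrocyte-like cells (0.30, 0.03 to 0.56) had intervals above 0. Meningeal fibroblast-like cells were past the fold, from 26 control and 60 tomatidine UMIs, with a log2 ratio of 0.40 (-0.28 to 1.12), and their interval held 0.

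Sirt4 encodes a mitochondrial sirtuin with weak deacetylase activity that inhibits glutamate dehydrogenase (chromosome 5, 115478010 to 115484725, minus strand). It was past the fold in more classes than any of the other 9 genes. Excitatory neuron-like cells had 2415 Sirt4 UMIs in the control and 2752 in the tomatidine library, or 22.4 and 29.7 CPM, a log2 ratio of 0.41 (0.33 to 0.49). Interneuron-like cells had 23.5 and 34.3 CPM (0.55, 0.33 to 0.76), and thalamic-like cells 21.3 and 32.8 CPM (0.62, 0.39 to 0.86). All 3 neuronal classes thus had more Sirt4 in the tomatidine library, past the fold. The interneuron-like ratio was 1.32 with cells of over 6000 genes left out.

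Outside neurons the values varied more. Astrocyte-like cells had 14.7 and 19.6 CPM (0.41, 0.12 to 0.71), and microglia-like cells 20.1 and 27.6 CPM (0.46, 0.02 to 0.90). OPC-like cells had 33.4 and 41.6 CPM (0.32, -0.11 to 0.74), and oligodendrocyte-like cells 32.8 and 34.6 CPM (0.08, -0.10 to 0.25). Endothelial-like cells had 19.6 and 20.95 CPM (0.10, -0.38 to 0.58). Meningeal fibroblast-like cells, the highest class in the control, went the other way with 49.5 and 37.9 CPM (-0.38, -0.84 to 0.08), an interval that held 0. The microglia-like ratio fell under the fold, to 0.22, when all deposited cells were used, and the astrocyte-like one, to 0.18, without integration of the libraries. Sirt4 in choroid plexus-like cells, whose number differed by the largest ratio, was at 24.0 and 28.1 CPM.

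Sirt4 was thus past the fold and higher in 5 of 9 classes, and 1.249% of the 9604 genes with enough UMIs in all 9 classes were past the fold and higher in at least 5. This compares 1 library with 1 library and says nothing of the spread between mice. Among hippocampal neurons, Sirt4 was at 21.4 and 34.1 CPM in CA1 cells (0.67, 0.48 to 0.87), at 24.1 and 34.1 CPM in dentate granule cells (0.50, 0.38 to 0.62), and at 25.3 and 29.96 CPM in CA3 cells (0.24, -0.05 to 0.54). The excitatory neuron-like clusters with no hippocampal name had 20.2 and 24.4 CPM (0.27, 0.13 to 0.41), and the unnamed clusters together 23.9 and 27.9 CPM (0.22, 0.09 to 0.36). CA1 and dentate granule cells were past the fold and these other groups were not, and the difference between them was not tested. Across clusters, 24 of the 27 with enough Sirt4 UMIs were higher in the tomatidine library and 3 were lower. For the other 9 genes this ran from 10 of 32 clusters higher for Nampt to 24 of 30 for Sirt7. The same count over all genes was not made, so it does not set Sirt4 apart. The highest was the Sst interneuron-like cluster 17, at 20.02 and 32.9 CPM.

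**Figure D3:**
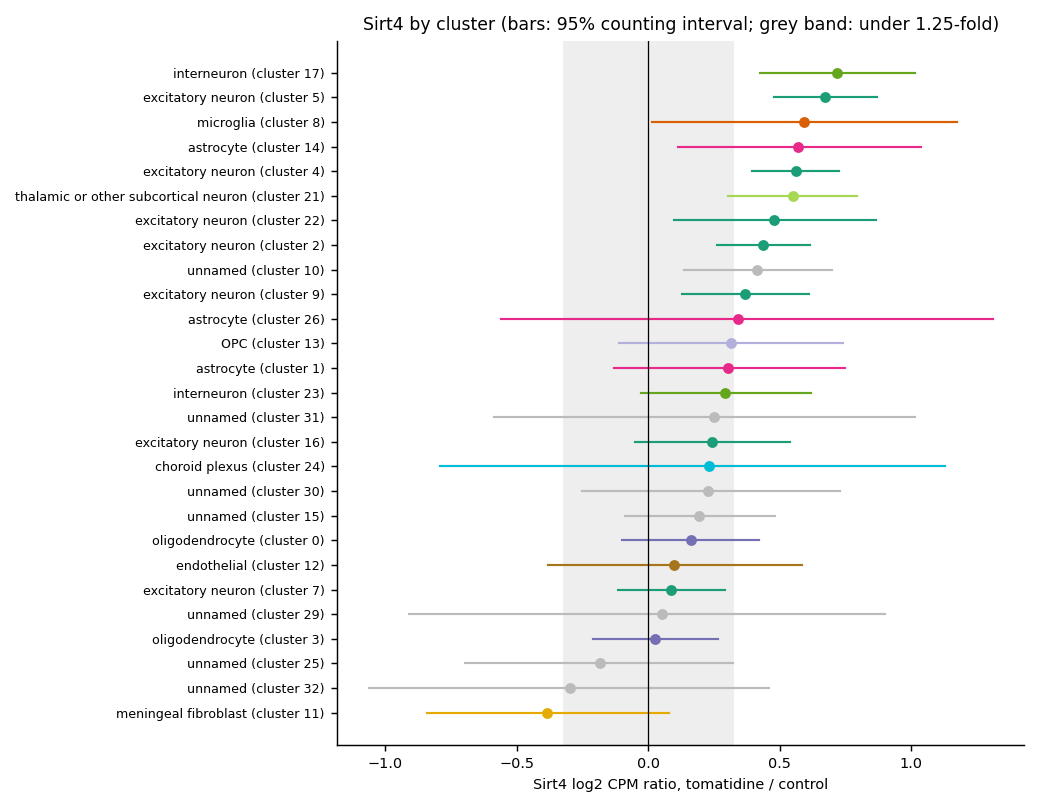
Log2 ratio of Sirt4, tomatidine over control, in the 27 clusters with at least 50 UMIs (points, coloured by class; bars, 95% counting interval; grey band, under the fold). Of these, 24 lie above 0, and meningeal fibroblast-like cluster 11 is lowest at -0.38. The same count over all genes was not made.

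The share of cells with a Sirt4 UMI was higher in the tomatidine library in 7 of 9 classes. In excitatory neuron-like cells it was 34.6% in the control and 41.9% in the tomatidine library, a difference of 7.30 percentage points (5.29 to 9.29), at a median of 16668 and 15735 UMIs per cell. With each cell thinned to 1500 UMIs the shares were 3.86% and 5.19%. No class could be taken to lack Sirt4, so no background share is given. In astrocyte-like cells 7.49% and 9.97% had a UMI, at median depths of 3699 and 4334.5 UMIs. The share was lower in meningeal fibroblast-like cells (18.4% and 16.2%) and in endothelial-like cells (16.6% and 13.7%), where the CPM was not lower, and the interval of both differences held 0. Endothelial-like cells had median depths of 6137 and 4467.5 UMIs. Thinned to 1500 UMIs, their shares were 2.545% and 2.811%, so the lower share was not kept at equal depth. The thinned shares of meningeal fibroblast-like cells were 7.41% and 6.60%.

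**Figure D4:**
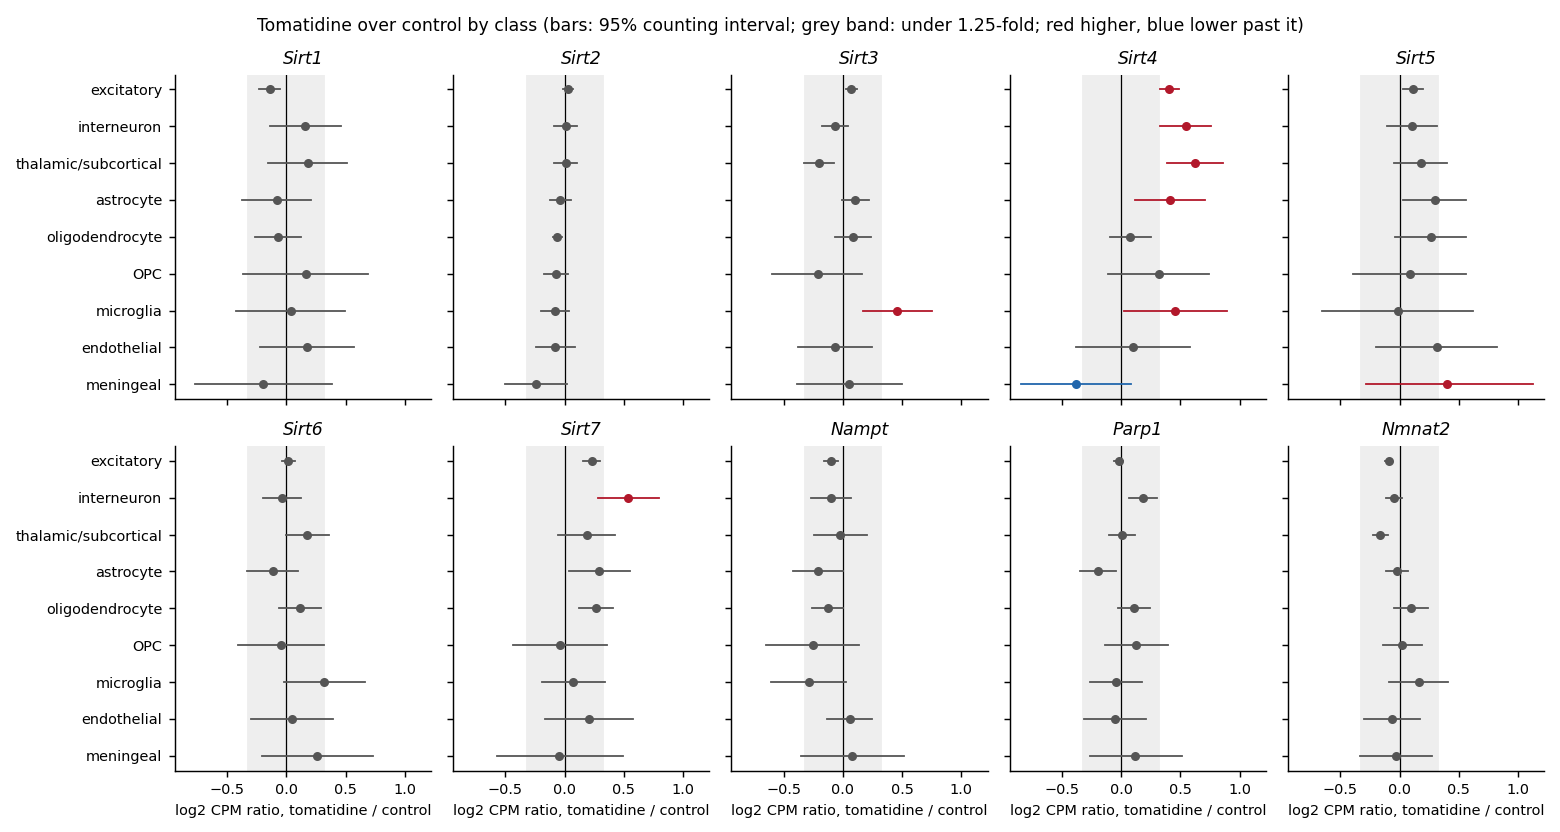
Log2 ratio of each gene, tomatidine over control, in the 9 main classes (points; bars, 95% counting interval; grey band, under the fold; red and blue, past the fold and higher or lower). Sirt4 has 5 red classes and 1 blue, Sirt3, Sirt5 and Sirt7 have 1 red class each, and the other 6 genes have none.

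Counted by class, few of the 10 genes were past the fold. As a share this lay below that of all genes in each main class except interneuron-like cells. The difference from that share was not tested. In excitatory neuron-like cells 1 of 10 was past the fold (Sirt4), against 12.8% of 13791 genes tested. In interneuron-like cells 2 of 10 were (Sirt4 and Sirt7), against 12.7%, and in thalamic-like cells 1 of 10 was (Sirt4), against 17.4%. Astrocyte-like cells had 1 of 10 (Sirt4), against 10.9%, and microglia-like cells 2 of 10 (Sirt3 and Sirt4), against 20.2%.

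Oligodendrocyte-like, OPC-like and endothelial-like cells had 0 of 10, against 12.5%, 21.1% and 20.6% of all genes. Meningeal fibroblast-like cells had 2 of 10, Sirt5 higher and Sirt4 lower, against 25.3%. Among hippocampal neurons, dentate granule cells had 1 of 10 (Sirt4) against 8.15%, CA1 cells 2 of 10 (Sirt4 and Sirt7) against 21.1%, and CA3 cells 0 of 10 against 16.0%. The median log2 ratio of the 10 genes in excitatory neuron-like cells was 0.02, beside 0.05 over all genes tested. In all, 9 of 90 pairs of gene and class were past the fold, 8 of them higher in the tomatidine library. The share over all genes was not pooled over these classes. The calls over all genes in excitatory neuron-like cells were also uneven, with 10.9% higher and 1.89% lower.

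Summed over all kept cells, 1 of 10 genes was past the fold, Sirt4, at 23.4 and 29.4 CPM (0.33, 0.27 to 0.38), against 15.9% of 15145 genes. Such a sum moves with the mix of classes as well as with the level in a class. Sirt2 was at 185 and 168 CPM over all cells, a log2 ratio of -0.14, which became -0.07 when both libraries were given the same class mix. Parp1 went likewise from -0.10 to -0.02, and Sirt7 from 0.14 to 0.20. Sirt4 was at 0.33 as counted and 0.34 at the same mix, and Nampt at -0.14 and -0.13.

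**Figure D5:**
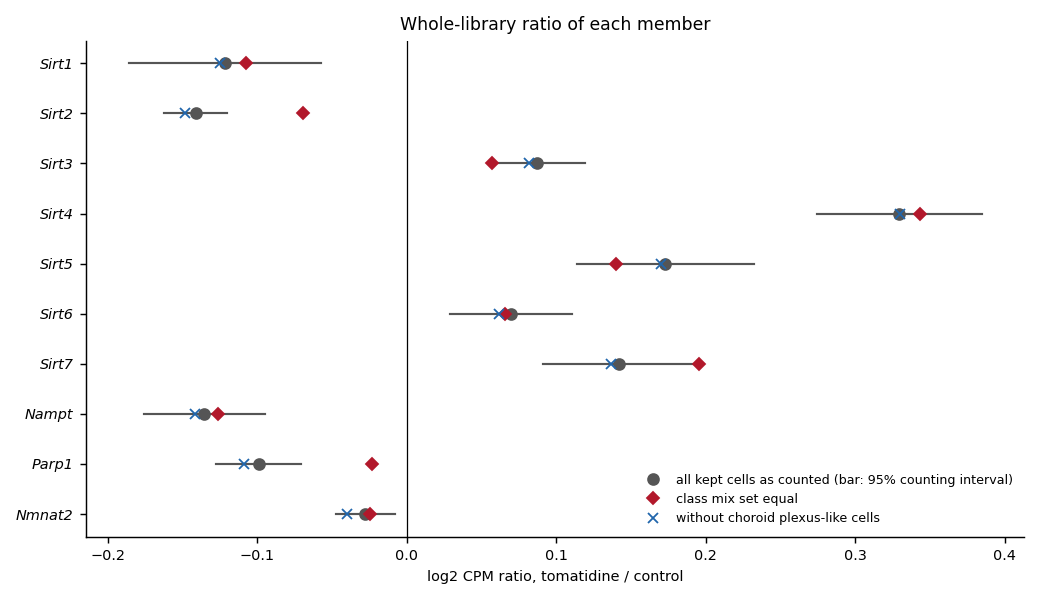
Log2 ratio of each gene over all kept cells, tomatidine over control, as counted (circles; bars, 95% counting interval), with the class mix set equal (diamonds) and without choroid plexus-like cells (crosses). Sirt2 and Parp1 move toward 0 when the class mix is set equal, and Sirt4 stays at 0.33 to 0.34.

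The rest of the NAD pathway was described with lists of 64 further genes in the files, counted in excitatory neuron-like cells beside the share of all genes, 10.9% higher and 1.89% lower. Of 6 salvage and NMN adenylylation genes 0 were past the fold, with a median log2 ratio of 0.10. Of 5 de novo and Preiss-Handler genes with enough UMIs 1 was higher, Afmid, an enzyme of tryptophan breakdown (2.84 and 3.57 CPM, 0.33, 0.10 to 0.56). Of 15 other NAD consumers, 6 genes of poly(ADP-ribose) turnover, 5 genes of NAD kinases, transport and transhydrogenase, 6 nuclear sirtuin substrates and 5 genes of axon survival with NMNAT2, 0 were past the fold, and the SIRT1 regulator Ccar2 was not either. Of 2 genes of nicotinamide clearance 1 was past the fold and higher in excitatory neuron-like cells, Aox1, an oxidase that clears nicotinamide products, from 79 and 98 UMIs (0.53, 0.09 to 0.98).

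In microglia-like cells 3 of 13 other NAD consumers were lower and 0 higher: Parp14 (71.2 and 56.0 CPM, -0.35, -0.61 to -0.08), Parp4 (28.2 and 20.5 CPM, -0.46, -0.91 to -0.03) and Parp11 (18.2 and 12.8 CPM, -0.51, -1.07 to 0.04). Most genes of this list belong to the PARP family, so a shared family among these 3 follows from the list. The interval of Parp11 held 0, and Parp14 was named after its value was seen. In endothelial-like cells 2 of 14 were higher and 0 lower, Parp3 (11.6 and 19.7 CPM, 0.76, 0.19 to 1.34) and Parp10 (20.996 and 32.6 CPM, 0.63, 0.21 to 1.07). In OPC-like cells 5 of 10 were higher. Over all genes, 6.02% were lower in microglia-like, 10.8% higher in endothelial-like and 11.7% higher in OPC-like cells. These classes are examples, and the lists are not given for each class. In microglia-like cells 2 of 3 salvage genes and 2 of 6 poly(ADP-ribose) turnover genes were higher and 0 lower. Over all genes, 14.2% were higher there. In CA1 cells 4 of 12 other NAD consumers were higher and 1 lower, against 18.5% and 2.64% of all genes.

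Several genes of these lists also had a class pattern, and the 4 given here were chosen after their values were seen. Naprt, the first enzyme of the Preiss-Handler route, was highest in astrocyte-like cells at 36.8 and 34.5 CPM, against 3.68 and 3.95 CPM in excitatory neuron-like cells. Cd38, a membrane enzyme that breaks down NAD, was at 45.8 and 48.2 CPM in astrocyte-like cells and at 1.013 and 1.027 CPM in excitatory neuron-like cells. Haao, an enzyme of the de novo route, was at 22.0 and 19.9 CPM in microglia-like cells, and was under 1 CPM in both libraries in each of the other 8 classes. Sarm1, the NAD-cleaving enzyme that drives axon loss and is opposed by NMNAT2, was at 26.9 and 28.4 CPM in excitatory neuron-like and at 40.3 and 36.7 CPM in interneuron-like cells, against 6.30 and 7.30 CPM in oligodendrocyte-like cells.

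Over 11 named classes, the genes whose log2 level was most like that of Sirt2 were Sox10 (Pearson r 0.98), Gal3st1 (0.97) and Gjc3 (0.97). For Nmnat2 they were St6gal2 (0.98), Ptpn5 (0.97) and Pde10a (0.97), and for Nampt Slc6a6 (0.93), Acer2 (0.90) and Clic5 (0.90). Sirt4 had the weakest likeness, with Tpst1 (0.87), Ptpn23 (0.87) and Mical3 (0.86). Among the 10 genes themselves, Sirt5 and Nmnat2 were most alike (0.82) and Sirt1 and Sirt3 most unlike (-0.73). These values come from 11 points that share libraries, and describe the classes only.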

How the data were processed

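Fixed single cells of hippocampus were profiled with a probe-based assay in 1 control and 1 tomatidine library, each from 4 pooled mice. The authors deposited UMI counts per gene and cell, not normalised, made with Cell Ranger on mm10. The version is 8.0.0 in the submitters' processing notes and 7.1.0 in the file header. Depth was 7077 and 7408 UMIs per kept cell (medians), so the precision of a low gene in a small class is set by its count, and intervals cover counting error only.

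Cells with at least 500 UMIs, 250 genes, a complexity of 0.8 and at most 20% mitochondrial UMIs were kept. Scrublet (scanpy 1.11.5) called 0 and 2 doublets, which did not serve, so the highest 2% of its scores were removed per library. Seurat 5.3.0 (R 4.3.3) joined the libraries by RPCA and clustered the cells (2000 variable genes, 30 components, resolution 0.8), leaving out the 10 genes and the wider NAD lists. A cluster was named when at least 3 markers and 50% of a list were raised 2-fold in at least 10% of cells, and that list led alone.

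UMIs were summed per library and class and divided by all UMIs of the class. Ratios were given for at least 50 UMIs, with exact Poisson, exact binomial (Clopper-Pearson), conditional binomial or Newcombe intervals at 95% (scipy 1.17.1, Python 3.11.15), and no test was run because each group was 1 library. The same rule over all genes gave the background. Counts were also simulated as Poisson draws, with no spread between cells, mice or libraries. Intervals contained the true ratio for 95.3% of 13740 genes in excitatory neuron-like and 95.7% of 10620 in OPC-like cells. Such intervals are built to cover Poisson counts, so this checks the calculation only. Unchanged genes passed the fold in 2.65% and 11.1%, from counting error alone. Alternatives used edgeR 4.0.16 TMM factors, other filters, clusterings, gates, folds and minimums.

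All 10 genes were named. Of the wider lists, at most the 2 highest and 2 lowest ratios of a list and class were to be named, with exceptions said where they stand. The 3 most alike genes needed 200 UMIs. The genes and lists were chosen with earlier results of these data known. Positions are from GENCODE M21 and upstream sequences from RefSeq. The list of mitochondrial sirtuin substrates is not reported here.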

Additional observations from a re-analysis of the deposited data

Results flagged for a closer look

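Sirt3 and Parp1 moved in different directions in different classes, with counting intervals on either side of 0. The log2 ratio of Sirt3, tomatidine over control, was 0.071 (0.02 to 0.12) in excitatory neuron-like cells and 0.46 (0.17 to 0.75) in microglia-like cells, but -0.20 (-0.33 to -0.07) in the thalamic-like neurons. That of Parp1 was 0.18 (0.06 to 0.30) in interneuron-like and -0.19 (-0.35 to -0.04) in astrocyte-like cells. The excitatory neuron-like ratio of Sirt3 was 0.017 (-0.030 to 0.064) with median-of-ratios factors, its thalamic-like ratio was -0.12 (-0.25 to 0.02) without the shallow cluster 20, and the interneuron-like ratio of Parp1 was -0.0088 with a per-cell marker gate. With 1 library per group the difference between classes was not tested.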

How the results depend on the processing

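No paired analysis was possible because each group was 1 pooled library. Of 911 alternative values for a gene in a class, 846 moved by less than their counting interval, 64 moved further and 1 reversed. The reversed value is the only sign change of a pair past the fold, Sirt5 in meningeal fibroblast-like cells at -0.018 as a mean over cells. Of all 90 pairs, 42 changed sign in at least 1 alternative, most of them ratios whose interval held 0. Of the 21 pairs whose interval did not hold 0, 3 changed sign (Sirt1 in excitatory neuron-like, Sirt7 in oligodendrocyte-like and Parp1 in interneuron-like cells), and 13 had an interval that held 0 in at least 1 alternative. The 9 pairs past the fold became 17 with cells of over 6000 genes left out, 15 with a per-cell marker gate, 21 as a mean over cells and 1 at a fold of 1.5. The 5 classes with higher Sirt4 became 1 at a fold of 1.5 and were 4 to 6 otherwise. With the class mix set equal, the ratio over all cells was -0.069 for Sirt2, 0.20 for Sirt7 and -0.023 for Parp1. The cause was not tested. Leaving out cluster 28 or 20, chosen after seeing the data, gave 11 and 9 pairs past the fold. TMM factors shifted classes by -0.06 to 0.03 on the log2 scale.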

Other observations

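Among clusters that met no naming rule, Sirt2 was highest in cluster 32 (463.7 CPM in the control and 221 CPM in the tomatidine library), led by Slc45a3 and Dsp, and in cluster 25 (363 and 305 CPM), led by Myoc, Tmem212 and Ccdc153. Over both libraries, cluster 32 held 25110 CPM of oligodendrocyte markers beside 5355 CPM of excitatory neuron markers. Cluster 25 held 13853 CPM of oligodendrocyte markers. The part of oligodendrocyte RNA in these Sirt2 levels was not tested. Cluster 27, led by Mrc1 and Cd163, had Sirt2 at 162 and 84.3 CPM, from 102 and 44 UMIs, and the highest Sirt7 of the clusters with at least 50 UMIs over both libraries.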
